A study of Mus musculus with 4 samples.

Results

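The cytosolic ribosomal protein genes encode the proteins of the ribosomes that translate nuclear mRNAs. They were taken as all rows of the 2 deposited count tables with a symbol of the form Rpl or Rps and a number, plus Rpsa, Rplp0, Rplp1 and Rplp2, leaving out pseudogene rows and the Rps6k kinases. The rule found 87 genes among the 26421 rows found in either table. Of these, 48 belong to the large subunit, 36 to the small subunit and 3 to the ribosomal stalk. Experiment 1 held 86 of them and experiment 2 all 87, the difference being Rpl39l. The rule uses symbols and not measured values, and 6 members lay under 100 CPM on average, where CPM scales a gene's reads to the total of the cells summed: Rpl32l, Rpl39l, Rpl7l1, Rps27l, Rps3a3 and Rps4l.

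The study sequenced single αLPs, the bone marrow progenitors of innate lymphoid cells sorted as Lin-CD127+FLT3-LPAM-1+, from wild-type (WT) mice and from G3SEKO mice, which lack a tandem pair of super-enhancers downstream of Gata3. The labels give C57BL/6 as the strain of experiment 1 and none for experiment 2. The deletion was made by CRISPR and is carried in the germ line, so that it is not limited to αLPs. It was kept as 2 mouse lines. The study used adult mice of both sexes. Cells of several mice were pooled for each genotype, marked with hashtag antibodies and profiled in 2 experiments by TAS-Seq, a whole-transcriptome method on the BD Rhapsody platform. The labels give different sorters for the experiments, while the methods name FACSAria II alone. More kinds of bone were harvested in experiment 2 than in experiment 1. Neither the labels nor the methods tie a hashtag to an animal, so each genotype gave 1 sample per experiment, and differences were judged over the 2 experiments. The labels list both hashtags of experiment 2 under WT, and every G3SEKO value of that experiment rests on the assignment of hashtag A0303 to G3SEKO given for this work. The study itself set ribosomal protein genes aside before its clustering and its comparisons.

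Cells were kept when they passed the read and mitochondrial limits, carried 1 hashtag and held Id2, a transcriptional regulator of innate lymphoid progenitors. This left 724 of 1033 cells in experiment 1 (681 WT, 43 G3SEKO) and 6289 of 7630 in experiment 2 (5130 WT, 1159 G3SEKO). The median depth was 404582 and 31975 reads. The libraries shared 5 barcode numbers among these cells. Each cell was placed in 1 gate, by the first of Mki67, Ccr6, Il1rl1, Zbtb16 and Icos to reach a natural log of 1 plus reads per 10000 of at least 1. Zbtb16 encodes PLZF, the factor that marks the common ILC precursor. ICOS is a costimulatory receptor of cells on the ILC2 path, and Il1rl1 encodes ST2, the IL-33 receptor of ILC2 progenitors. Ccr6 marks lymphoid tissue inducer-like cells, and Mki67 marks dividing cells.

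Il18r1 and Gata3, which the gates did not use, went with the names of the WT Zbtb16+ and Il1rl1+ gates. These values do not cover the other gates. Il18r1, an ILC precursor gene, had 669 and 589 CPM (experiments 1 and 2) among Zbtb16+ cells against 119 and 51.6 CPM among Il1rl1+ cells. Gata3, the gene beside the deletion, had 1388 and 1042 CPM among WT Il1rl1+ cells. Among Zbtb16+ cells Gata3 had 834 CPM in WT against 881 in G3SEKO (experiment 1) and 766 against 493 (experiment 2). The G3SEKO Il1rl1+ gate went against its name: in experiment 2 its summed CPM over 6 ILC precursor markers was 2706, against 200.2 in WT Il1rl1+ cells of that experiment, and over 7 ST2+ ILC2 markers it was 1057 against 3053. It is therefore named only by its rule, Il1rl1 at or over the gate limit, which cells with fewer Il1rl1 reads do not meet. Over all sums of a gate, genotype and experiment, T lineage markers summed to at most 139 CPM, B lineage markers to at most 109, myeloid markers to at most 11.5 and erythroid markers to at most 25.2.

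A cytosolic ribosome holds a single copy of most of these proteins, so that their mRNAs are made in a near fixed ratio to each other, and several of the proteins come in more than 1 version encoded by paralogs. Their mRNAs begin with a C followed by a run of pyrimidines, the 5′ terminal oligopyrimidine (TOP) motif, through which the kinase mTOR and the RNA-binding protein LARP1 control their translation and stability. Growing cells spend a large part of their mRNA on these genes. Blood progenitors are sensitive to the dose of ribosomal proteins, as the anaemia of patients who lack 1 copy of such a gene shows.

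The starts of 5 members whose levels are described below are shown, 4 with a run of this kind near the annotated start and 1 without, because the group is known for this motif. Each window runs from 10 bases before to 20 bases from the RefSeq start on (GRCm38.p6), 5′ to 3′ on the gene's strand, and capitals mark the run nearest to the start, counted from a C on and holding at least 5 pyrimidines in a row, whatever base came before that C. Rps27 lies at chr3:90213629-90213658 (minus strand), Rps27l at chr9:66946076-66946105 (plus), Rplp2 at chr7:141447641-141447670 (plus), Rps2 at chr17:24720053-24720082 (plus) and Rps16 at chr7:28350679-28350708 (plus).
Rps27: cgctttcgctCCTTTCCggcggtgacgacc
Rps27l: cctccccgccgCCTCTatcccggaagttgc
Rplp2: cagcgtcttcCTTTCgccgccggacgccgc
Rps2: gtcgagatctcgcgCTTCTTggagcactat
Rps16: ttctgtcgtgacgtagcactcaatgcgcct
The annotated start of Rps27 and of Rplp2 is itself a C from which such a run is counted. In Rps2 the run begins 4 bases further on and in the Rps27l window shown 1 base further on, while a further RefSeq start of Rps27l, at chr9:66946403-66946432, has none of this form. In Rps16 none of this form lies near the start either. RefSeq promoters were matched for 62 of the 87 members, with 73 starts. A run was counted from the annotated base in 14 of these starts (19.2%), against 2.47% of 32775 other starts, and from a C within 5 bases of it in 32 (43.8%), against 18.3%. A match is a description of these letters and not of a start used in these cells. Rplp1 had no entry.

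Ribosomal protein genes took 14.95% of all reads of the kept cells in experiment 1 and 11.74% in experiment 2, and in single cells between 2.003% and 26.4% and between 0.760% and 25.3%. In WT cells the share was lowest in the Ccr6+, Mki67+ and Zbtb16+ gates and highest in the Il1rl1+ gate in both experiments. The median over Zbtb16+ cells was 13.8% in experiment 1 (97 cells) and 10.2% in experiment 2 (228 cells). Over Icos+ Zbtb16- cells it was 14.8% (80 cells) and 12.4% (539 cells), and over Il1rl1+ cells 16.0% (418 cells) and 13.2% (3515 cells). Both experiments gave the same order of these 3 gates, although the level of each gate was higher in experiment 1.

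The Il1rl1+ gate exceeded the Zbtb16+ gate by 2.20 percentage points in experiment 1 and by 3.01 in experiment 2, a mean of 2.61 ± 0.567 (SD, n = 2 experiments). A pair of experiments allows no exact two-sided p under 0.5, so no test was run on shares. The cells overlapped: 77.5% of WT Il1rl1+ cells in experiment 1 and 89.0% in experiment 2 lay above the median of the WT Zbtb16+ cells. Reads per cell went the other way, with medians of 657629 and 48368 in WT Zbtb16+ and 369314 and 30998 in WT Il1rl1+ cells. Among cells of a fixed range of depth the difference was 2.62 and 3.19 points. The median share of mitochondrial reads was 3.29% and 2.66% in WT Zbtb16+ and 3.64% and 2.99% in WT Il1rl1+ cells, and its part in the result was not tested. Markers of other lineages moved too. Markers of LTi cells or ILC3 summed to 272 and 367 CPM in WT Zbtb16+ against 42.0 and 25.4 CPM in WT Il1rl1+ cells, and markers of NK cells or ILC1 to 341 and 174 CPM against 19.3 and 19.6 CPM, and their part was not tested either.

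The step was not even along the gates. Within the Zbtb16+ gate of WT mice, cells without Icos had a median of 14.4% (64 cells) and 10.2% (128 cells) and cells with Icos 12.5% (33 cells) and 10.1% (100 cells), so that the gain of Icos alone came with no higher share in either experiment. Cells without Zbtb16 had a higher one: Icos+ Zbtb16- cells exceeded all Zbtb16+ cells by 1.03 and 2.21 points, and Il1rl1+ cells exceeded Icos+ Zbtb16- cells by a further 1.17 and 0.800 points. The Icos+ Zbtb16- cells with no Il1rl1 read had 12.5% in experiment 1 (8 cells), below the Zbtb16+ cells. In experiment 2 they had 12.2% (289 cells), above the Zbtb16+ cells. The 3 hashtags of WT cells in experiment 1 gave 15.9%, 16.3% and 15.8% in the Il1rl1+ gate and 13.8%, 12.96% and 14.4% in the Zbtb16+ gate, and the gates did not overlap across hashtags.

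Dividing cells had the lower share. The median over WT Mki67+ cells was 12.7% in experiment 1 (12 cells) and 8.78% in experiment 2 (78 cells), a difference from the Il1rl1+ gate of -3.29 and -4.42 points (mean -3.85 ± 0.798, SD, n = 2). None of the 12 Mki67+ cells of experiment 1 and 6.41% of those of experiment 2 lay above the Il1rl1+ median. The Mki67+ gate also differed in stage markers. Its ILC precursor markers summed to 1006 and 560 CPM, against 311.5 and 200.2 CPM in WT Il1rl1+ cells, and its ST2+ ILC2 markers to 1724 and 1456 CPM, against 3023 and 3053 CPM. Its LTi or ILC3 markers summed to 96.2 and 71.6 CPM, against 42.0 and 25.4 CPM. Its NK or ILC1 markers summed to 137 and 12.5 CPM, against 19.3 and 19.6 CPM, in opposite order in the experiments. The part of these markers in the result was not tested. The Ccr6+ gate was lowest, with 10.1% in 2 cells of experiment 1 and 6.61% in 39 cells of experiment 2, a difference from WT Zbtb16+ cells of -3.65 and -3.58 points.

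**Figure D1:**
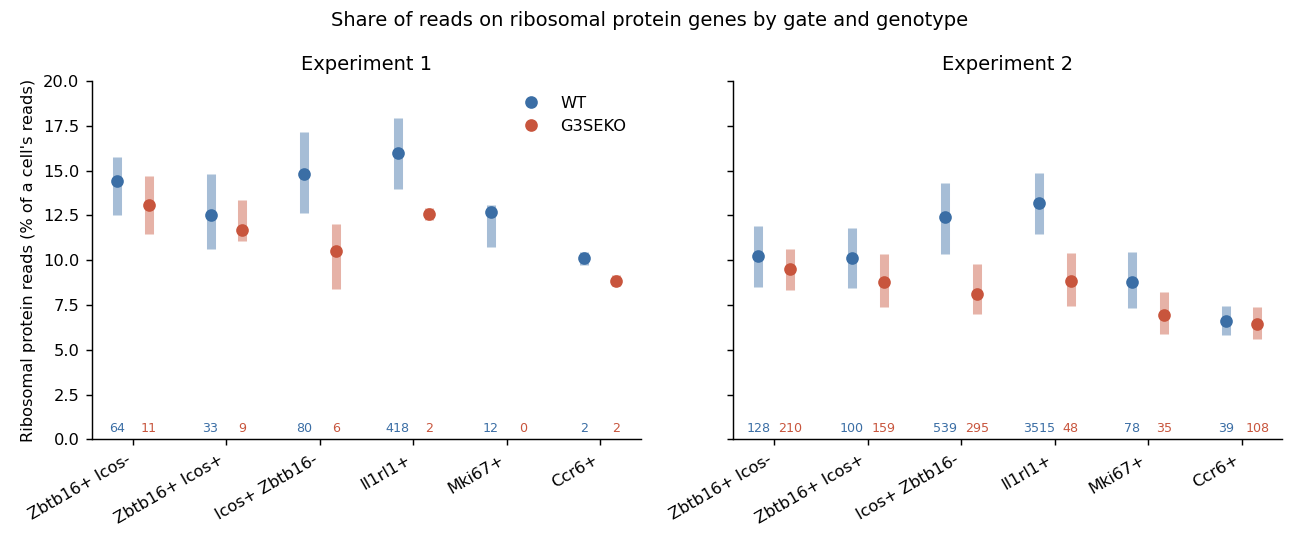
Share of each cell's reads on the 87 ribosomal protein genes (percent, y axis) by gate (x axis) in experiments 1 and 2. Points are medians over cells, bars span the quartiles and the numbers along the bottom count cells; WT (blue) is highest in the Il1rl1+ gate, at 16.0% and 13.2%, and G3SEKO (red) lies below WT in each gate with cells of both genotypes.

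The genotypes differed less among Zbtb16+ cells than in the Icos+ Zbtb16- and Il1rl1+ gates. In Zbtb16+ cells the G3SEKO median was 12.7% in experiment 1 (20 cells) and 9.29% in experiment 2 (369 cells), a difference from WT of -1.04 and -0.905 points (mean -0.972 ± 0.0943, SD, n = 2). Over the alternative settings this difference ran from -1.84 to -0.564 points. In Icos+ Zbtb16- cells it was 10.5% (6 cells) and 8.10% (295 cells), a difference from WT of -4.29 and -4.30 points (mean -4.29 ± 0.00799). None of the 6 G3SEKO cells of experiment 1 and 6.10% of the 295 of experiment 2 lay above the WT median. The value of experiment 1 rests on 6 cells.

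Where WT cells had a higher share without Zbtb16 than with it, G3SEKO cells had a lower one. From Zbtb16+ to Icos+ Zbtb16- cells the G3SEKO median changed by -2.22 and -1.19 points in the 2 experiments, and the WT median by 1.03 and 2.21 points. Cells over the Il1rl1 gate limit were few in G3SEKO. Their median was 12.6% in 2 cells of experiment 1 and 8.84% in 48 cells of experiment 2, a difference from WT of -3.39 and -4.36 points (mean -3.87 ± 0.689). In Mki67+ cells of experiment 2 it was 6.93% (35 cells), a difference of -1.85 points, and experiment 1 had no such G3SEKO cell. The markers of this gate differed too: the ILC precursor markers summed to 560 CPM in WT and 1556 CPM in G3SEKO and the ST2+ ILC2 markers to 1456 and 400.2 CPM. The NK or ILC1 markers summed to 12.5 and 207 CPM and the LTi or ILC3 markers to 71.6 and 227 CPM, and their part in the result was not tested. In Ccr6+ cells the genotypes lay close together in experiment 2, at 6.43% (108 cells) and 6.61% (39 cells), and 44.4% of the G3SEKO cells lay above the WT median. Experiment 1 had 2 such cells of each genotype, with a G3SEKO difference of -1.25 points. Cells in none of the gates had medians of 13.3% and 8.34% in G3SEKO and 14.95% and 13.1% in WT.

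The Icos+ Zbtb16- gate did not hold the same cells in both genotypes. The 7 ST2+ ILC2 markers summed to 1438 and 1468 CPM in WT and to 770 and 538 CPM in G3SEKO, and the 6 ILC precursor markers to 1470 and 667 CPM in WT and to 2572 and 2420 CPM in G3SEKO. Markers of LTi cells or ILC3 summed to 136 and 94.3 CPM in WT and to 1092 and 363 CPM in G3SEKO. Markers of NK cells or ILC1 summed to 323 and 30.8 CPM in WT and to 4.15 and 257 CPM in G3SEKO, in opposite order in the experiments, and T lineage markers to 28.5 and 30.2 CPM and to 139 and 55.5 CPM. The part of these markers in the result was not tested. Among Icos+ Zbtb16- cells of experiment 2 with no Il1rl1 read the share was 12.2% in WT (289 cells) and 8.10% in G3SEKO (204 cells), a difference of -4.06 points. Among those that also held Il18r1 it was 9.47% in WT (63 cells) and 8.34% in G3SEKO (169 cells), a difference of -1.14 points. Both lay below the Zbtb16+ cells of their genotype, at 10.2% in WT and 9.29% in G3SEKO, so that in this subset the share was lower without Zbtb16 in WT too. Experiment 1 had no G3SEKO cell in either subset, and its 4 WT cells of the last kind had 12.4%, against 13.8% in WT Zbtb16+ cells. In these data a change of ribosomal protein reads within a stage and a change in which cells reach the gate cannot be told apart.

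Both subunits moved. Large-subunit genes took a median of 7.46% and 5.37% of reads in WT Zbtb16+ and 8.58% and 6.77% in WT Il1rl1+ cells, and small-subunit genes 6.30% and 4.73% against 7.31% and 6.39%. The 78 mitochondrial ribosomal protein genes took 0.414% and 0.385% against 0.389% and 0.334%. A share is relative to all other reads of a cell, so a higher share and fewer other transcripts cannot be told apart either. The Spearman correlation of a cell's share with its reads within a gate lay between -0.16 and 0.24 over the gates with at least 20 cells, and with its share of mitochondrial reads between -0.17 and 0.26, given as a description over cells of shared libraries.

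Gene by gene, reads were summed over the cells of each gate, genotype and experiment, and the 16 sums of at least 5 cells were compared with edgeR's quasi-likelihood test with the experiment as a block and Benjamini-Hochberg adjustment over 20579 genes. All 87 members passed the low-count filter. From WT Zbtb16+ to WT Il1rl1+ cells 83 of the 87 had a positive log2 change, against 53.6% of all genes, with a median of 0.30 against 0.06. The medians of members and of all genes were 0.10 and 0 in experiment 1 and 0.46 and 0.11 in experiment 2. At an adjusted p under 0.05, 1 member rose (Rplp1) and 0 fell, where 0.0389% of all genes rose and 0.0875% fell. At an unadjusted p under 0.05, 41 members were higher and 0 lower, where 3.58% of all genes were higher. In both experiments 66 members were higher, where 34% of all genes were. DESeq2 called 3 members higher (Rplp1, Rps16 and Rps27), where it called 1.49% of the genes to which it gave an adjusted p. The smallest change that this fit can detect in a member was not tested.

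The 4 members without a positive change were Rps27l, Rpl7l1 and Rpl39l, all copies of a more highly expressed member, and Rps26 at -0.0018, of which none passed the test. Their names were read off after the values were seen. The large subunit had a median of 0.26 (46 of 48 positive), the small subunit 0.33 (34 of 36) and the stalk 0.52 (3 of 3). The experiments gave a similar order of the members by size of change. Over the 81 members with at least 100 CPM on average, the log2 ratios of experiments 1 and 2 had a Pearson correlation of 0.88. The Spearman correlation was 0.87, and both are a description over genes that are not independent. Ratios ran from -0.23 to 0.70 in experiment 1 and from 0.08 to 1.02 in experiment 2.

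**Figure D2:**
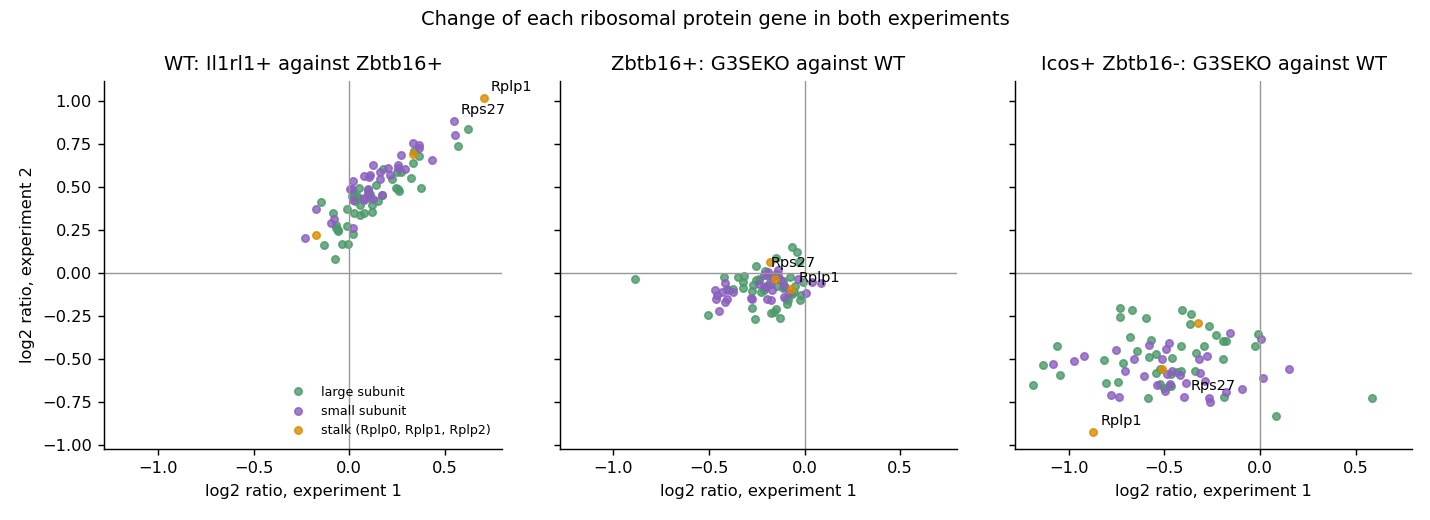
Log2 ratio of each of the 81 members with at least 100 CPM on average in experiment 1 (x axis) and experiment 2 (y axis), for WT Il1rl1+ against WT Zbtb16+ cells and for G3SEKO against WT in Zbtb16+ and in Icos+ Zbtb16- cells. For WT Il1rl1+ against WT Zbtb16+ cells the members lie along a line (Pearson correlation 0.88) with Rplp1 at its upper end. For G3SEKO against WT most lie below 0 in both experiments, in Zbtb16+ and in Icos+ Zbtb16- cells. There they have no common order, with correlations of 0.17 in Zbtb16+ and -0.02 in Icos+ Zbtb16- cells.

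Rplp1 had the largest change of the stalk proteins. The stalk binds the elongation factors at the entry of the ribosome and is built from Rplp0, its anchor, and from paired copies of Rplp1 and Rplp2. Rplp1 was at 2996 and 2130 CPM in WT Zbtb16+ cells of experiments 1 and 2, at 4308 and 3312 CPM in Icos+ Zbtb16- cells and at 4928 and 3924 CPM in Il1rl1+ cells. It was higher in Il1rl1+ than in Zbtb16+ cells in each experiment. Its log2 change was 0.87 (SE 0.09, adjusted p = 0.0151 by edgeR), the only member called in this comparison. Without the experiment as a block the log2 change was 0.85 and the call was lost, with 0 members called.

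Rplp2 was at 2316 and 736 CPM in Zbtb16+ and at 2947 and 1079 CPM in Il1rl1+ cells, higher in each experiment, with a log2 change of 0.52 (SE 0.12, adjusted p = 0.281). Rplp0 was at 3331 and 4100 CPM against 2978 and 4333 CPM, lower in experiment 1 and higher in experiment 2, with a log2 change of 0.03 (SE 0.12), and its sign turned when library sizes alone or DESeq2's size factors set the scale. The anchor and its partners thus had different values in the same sums, and the difference between them was not tested.

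Rpl5 and Rpl11 form, with 5S rRNA, the particle that binds the p53 regulator MDM2. Rpl5 had 1081 and 1258 CPM in Zbtb16+ cells against 1375 and 1780 CPM in Il1rl1+ cells. Rpl11 had 1367 and 983 CPM against 1501 and 1172 CPM. Both were higher in both experiments, with log2 changes of 0.50 (SE 0.12) and 0.27 (SE 0.12), and neither passed the adjusted test.

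**Figure D3:**
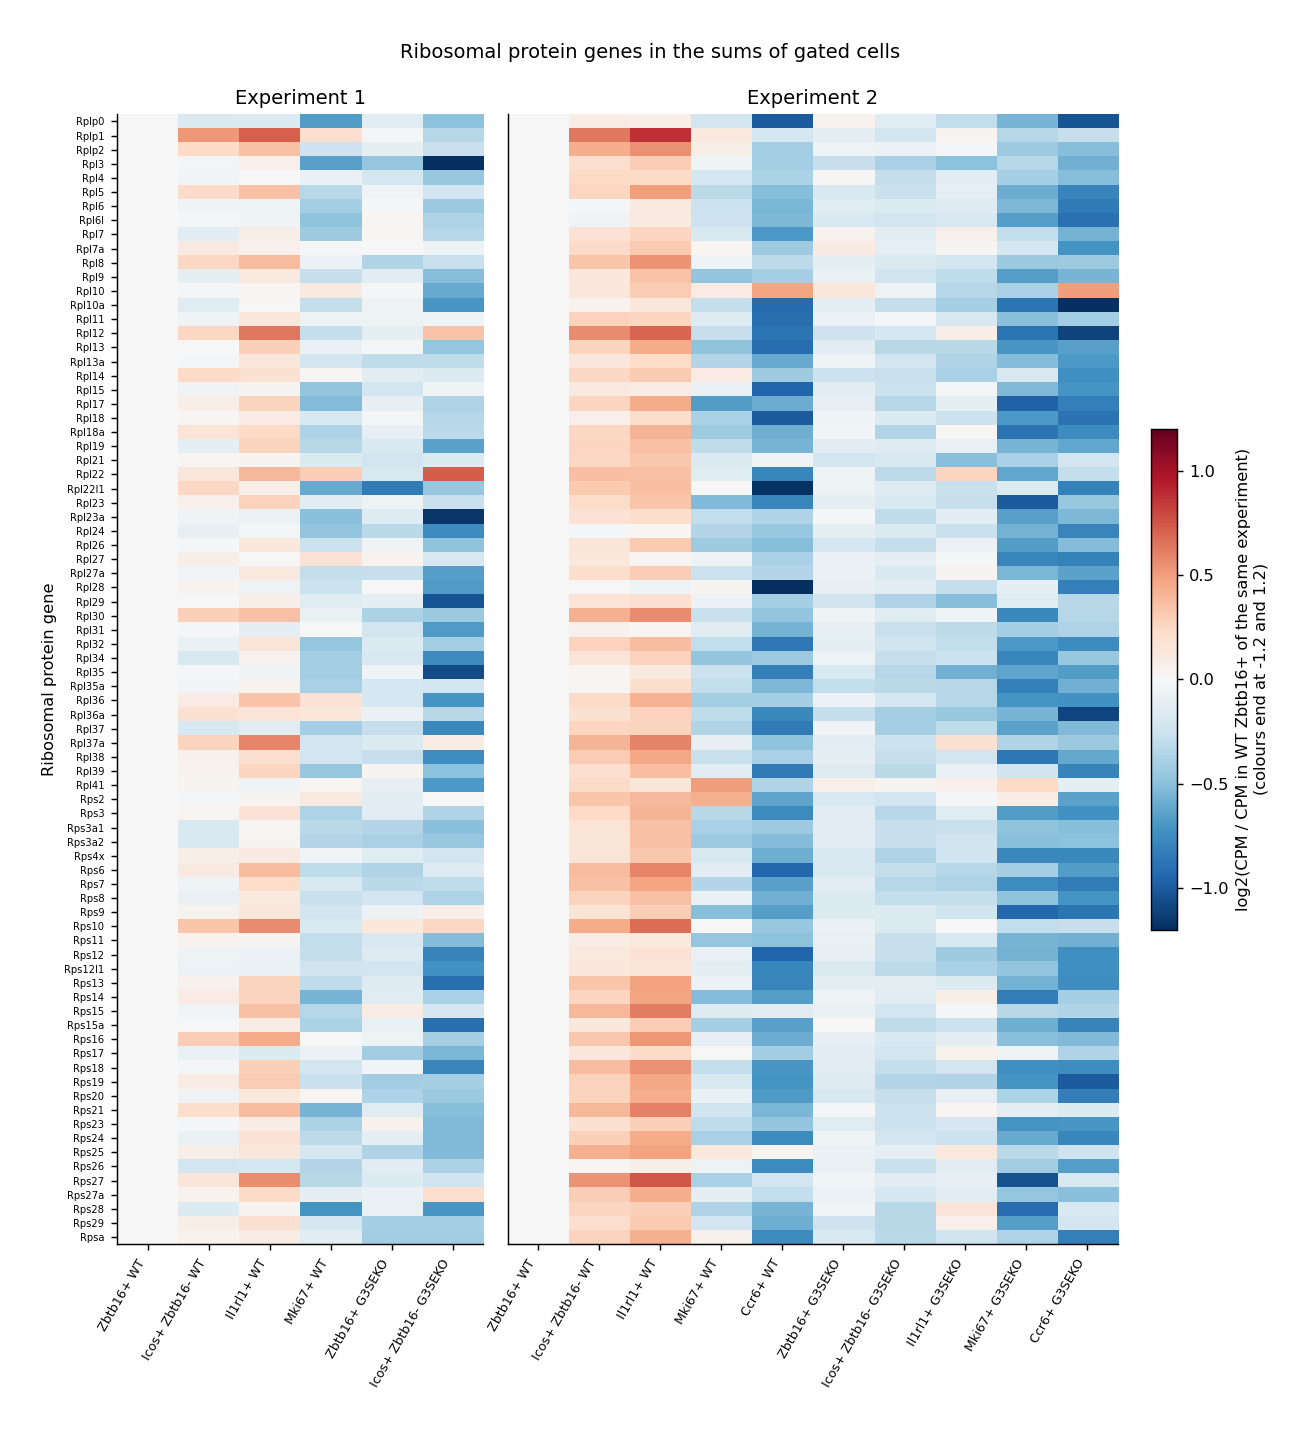
CPM of 80 of the 81 members with at least 100 CPM on average in each sum of at least 5 cells, as log2 of its ratio to WT Zbtb16+ cells of the same experiment (colour; red higher, blue lower; genes in rows, gates and genotypes in columns). Most members are red in WT Il1rl1+ cells of experiment 2 and blue in the Mki67+ and Ccr6+ gates and in most G3SEKO columns, and Rplp1 and Rps27 are among the reddest in WT Il1rl1+ cells of both experiments.

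In WT Mki67+ against WT Il1rl1+ cells 80 of 87 members had a negative log2 change, where 38.8% of all genes had a positive one, with a median of -0.42. The median of all genes was itself -0.33 and moved to -0.19 with DESeq2's size factors, so the members' median less that of all genes was -0.10 by edgeR and -0.16 by DESeq2, -0.40 in thinned cells and 0.08 without the filter on low counts. It also turned sign between the experiments, with medians of -0.38 for the members and -0.41 for all genes in experiment 1 and of -0.58 and -0.29 in experiment 2. At an adjusted p under 0.05, 1 member fell, where 0.00486% of all genes fell, and 0 rose, where 0.034% did. At an unadjusted p under 0.05, 54 were lower, where 5.58% of all genes were, and 76 were lower in both experiments, where 42.3% of all genes were. DESeq2 called 9 lower, where it called 2.59% of genes. With every cell thinned to the same number of reads 17 were called lower, where 0.725% of genes were. The member called was Rps14, a small subunit protein encoded in the region lost in the human 5q- syndrome, named here after its values were seen. It was at 4086 and 3848 CPM in Il1rl1+ cells and at 2304 and 1926 CPM in Mki67+ cells (log2 change -0.87, SE 0.08, adjusted p = 0.0225 by edgeR), lower in Mki67+ cells in each experiment. The call was lost when only these 2 groups were fitted, when the sums were scaled to ribosomal protein reads and without the block.

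Between genotypes 81 of 87 members were lower in G3SEKO Zbtb16+ cells, where 45.1% of all genes were higher, with a median log2 change of -0.12 against -0.08 over all genes. No member was called in either direction by edgeR (0% of all genes were) or by DESeq2, where 0.0421% of genes were called lower. At an unadjusted p under 0.05 there were 4, Rpl8, Rps19, Rps29 and Rpsa, named after their values were seen, with log2 changes between -0.32 and -0.23, where 1.35% of all genes were lower at that p. In both experiments 71 members were lower, where 26.8% of all genes were. The medians of members and of all genes were -0.18 and -0.22 in experiment 1 and -0.08 and 0.02 in experiment 2.

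In Icos+ Zbtb16- cells 85 of 87 members were lower in G3SEKO, all but Rps27l and Rps4l, where 39.5% of all genes were higher, with a median log2 change of -0.51. The median of all genes was -0.32 and moved to -0.11 with DESeq2's size factors, so the members' median less that of all genes was -0.20 by edgeR and -0.24 by DESeq2. It was -0.67 in thinned cells, -0.64 among cells with no Il1rl1 read and -0.40 with sums of at least 20 cells, which leaves out the 6-cell sum. It turned sign between the experiments: in experiment 1, with 6 G3SEKO cells, the median of the members was -0.47 and that of all genes -0.73, and in experiment 2 they were -0.53 and 0. Here too edgeR called 0 members and 0% of all genes, and the smallest adjusted p was 0.126. At an unadjusted p under 0.05, 68 members were lower, where 3.11% of all genes were, and 78 were lower in both experiments, where 32.4% of all genes were. DESeq2 called 6 members lower, where 0.702% of genes were. In cells thinned to the same number of reads 25 of the 85 members that passed the filter were called lower, where 0.65% of 12145 genes were.

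Rplp1 had the smallest adjusted p of this comparison. It was at 4308 and 3312 CPM in WT and at 2367 and 1815 CPM in G3SEKO Icos+ Zbtb16- cells, lower in G3SEKO in each experiment (log2 change -0.91, SE 0.09). In Zbtb16+ cells it was at 2996 and 2130 CPM in WT and at 2947 and 1964 CPM in G3SEKO (log2 change -0.06, SE 0.09). The G3SEKO sums without Zbtb16 thus lay below the WT sums with it in each experiment. The genotype effect in Icos+ Zbtb16- cells less that in Zbtb16+ cells was negative in 84 of 87 members, where 43.9% of all genes were positive, with a median of -0.37 against -0.20 over all genes. It was called in 0 members by edgeR, with 0% of all genes called in either direction, and 30 members were lower at an unadjusted p under 0.05, where 1.8% of all genes were. DESeq2 was not run on this difference.

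In Il1rl1+ cells all 87 members were lower in G3SEKO, where 32.2% of all genes were higher, with a median log2 change of -0.62 against -0.68 over all genes. Which of these medians was lower depended on the fit: they were -0.44 and -0.32 with DESeq2's size factors, -0.68 and -0.36 in thinned cells, -0.95 and -0.59 without the block, and -0.76 and -0.45 as ratios within experiment 2. Only experiment 2 had a G3SEKO sum of at least 5 cells, so that this lone sum was taken to vary like the others. In that experiment the LTi or ILC3 markers of these cells summed to 258 CPM in G3SEKO and 25.4 in WT, the NK or ILC1 markers to 129 and 19.6 CPM and the T lineage markers to 132 and 6.29 CPM, and their part in the result was not tested. By edgeR 0 members were called, where 0.00972% of all genes were called higher and 0% lower, and the smallest adjusted p was 0.0888. At an unadjusted p under 0.05, 65 were lower, where 4.84% of all genes were. DESeq2 called 1 lower (Rps16), where 2.33% of genes were, and in thinned cells 5 were (Rpl8, Rplp1, Rps4x, Rps6 and Rps19), where 0.56% of genes were. Across the genotype comparisons of Icos+ Zbtb16- and Zbtb16+ cells the members had no common order in the 2 experiments, with Pearson correlations of -0.02 and 0.17 over 81 members.

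Averaged over both experiments, the makeup of the ribosomal protein reads was close to constant. For each of the 81 members its percent of all ribosomal protein reads was compared over the 4 WT gates that both experiments filled, as the mean of both experiments on a log2 scale. The median range from the lowest to the highest gate was 0.20, and 76 of 81 members stayed under 0.5. Opposite changes cancel in such a mean. Rpl3 had a range of 0.12, but 0.41 in experiment 1, with Mki67+ cells lowest, and 0.23 in experiment 2, with Mki67+ cells highest. Among the steadiest were Rps29 (0.03), Rpl27a, Rpl38 and Rpl13a (0.09). Rps29, a zinc-binding protein of the small subunit head, held 1.164%, 1.197%, 1.176% and 1.198% of these reads in Zbtb16+, Icos+ Zbtb16-, Il1rl1+ and Mki67+ cells of experiment 1.

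The 5 least steady were Rpl41 (0.71), Rps2 (0.56), Rpl27 (0.53), Rplp1 (0.53) and Rps27 (0.52). Rpl41, the shortest protein of the ribosome, held 1.64%, 1.64%, 1.40% and 1.97% in experiment 1 and 0.526%, 0.527%, 0.451% and 0.862% in experiment 2, in the same order of gates. It was highest in Mki67+ and lowest in Il1rl1+ cells in both. Rps2 and Rpl27 had the same highest and lowest gates as means over the experiments. Rps27, a zinc-finger protein of the small subunit, had the opposite pattern, with 1.36% and 0.256% in Il1rl1+ and 0.976% and 0.175% in Mki67+ cells.

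**Figure D4:**
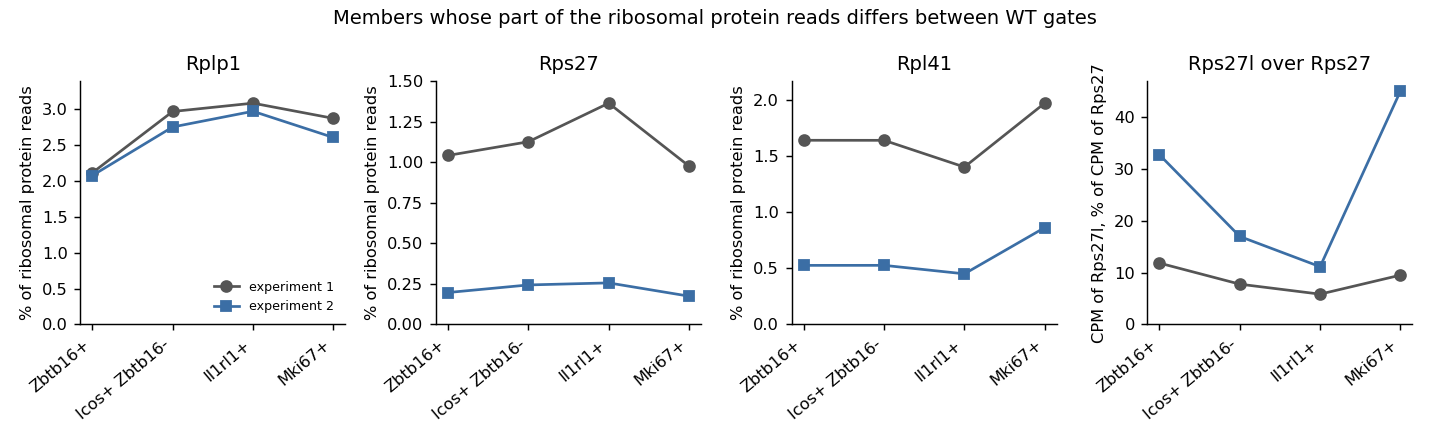
Percent of all ribosomal protein reads held by Rplp1, Rps27 and Rpl41, and CPM of Rps27l as a percent of the CPM of Rps27 (y axes), in 4 WT gates (x axes), with experiment 1 in grey and experiment 2 in blue; each point is 1 sum of cells, without error. Rplp1 is lowest in Zbtb16+ cells, Rpl41 highest in Mki67+ cells and the Rps27l ratio lowest in Il1rl1+ cells, in both experiments.

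Rps27l, a paralog of Rps27 known as a p53 target, was among the 4 members without a positive change. It was at 174 and 66.0 CPM in WT Zbtb16+ cells, at 127 and 49.7 in Icos+ Zbtb16- and at 127 and 37.7 in Il1rl1+ cells (log2 change from Zbtb16+ to Il1rl1+ -0.55, SE 0.38, adjusted p = 1). Rps27 was at 1477 and 202 CPM, 1635 and 293 CPM and 2180 and 339 CPM in the same gates (log2 change 0.72, SE 0.14, adjusted p = 0.184). As a percent of Rps27, Rps27l thus went from 11.8% to 7.76% to 5.84% in experiment 1 and from 32.6% to 16.9% to 11.1% in experiment 2, lower at each step in both. In Mki67+ cells the ratio was 9.49% and 44.9%, and the change of Rps27l from Il1rl1+ to Mki67+ cells differed in sign between the experiments. The ratio was not tested.

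The other paralog pairs gave no such order. Rpl22l1, the paralog whose mRNA Rpl22 represses, was at 55.2%, 59.8%, 44.2% and 29.6% of Rpl22 in the 4 WT gates of experiment 1 and at 60.6%, 58.8%, 60.8% and 67.1% in experiment 2. From Zbtb16+ to Il1rl1+ cells Rpl22 had a log2 change of 0.44 (SE 0.30) and Rpl22l1 of 0.27 (SE 0.25). Rpl7l1, a copy of Rpl7 that takes part in ribosome assembly, stood between 85.3 and 126 CPM in these sums, against 1318 to 2675 CPM for Rpl7. Rps4l was at or under 11.05 CPM and Rpl39l at or under 1.5 CPM in them. Rpl3, Rpl10, Rps4x and Rpl39 had log2 changes from Zbtb16+ to Il1rl1+ cells between 0.24 and 0.38, of which none passed the adjusted test. Reads of members with near-identical copies (Rps3a1 with Rps3a2 and Rps3a3, Rpl6 with Rpl6l, Rps12 with Rps12l1, Rpl32 with Rpl32l, and processed pseudogenes, whose rows took 1.61% and 1.35% of reads) could have been split between them, and their levels are uncertain.

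The experiments differed in the makeup of these reads more than the gates did. Over WT cells Rps29 had a log2 ratio of experiment 2 over experiment 1 of -3.92, Rps28 of -3.65, Rpl38 of -3.47 and Rpl37 of -2.56, while Rps2 had 0.95. The 13 members with a median coding transcript under 500 bases had a median log2 ratio of -1.25, against 0.02 for the others, and the Spearman correlation with length over 78 members was 0.54, a description over genes. For that reason changes were taken within each experiment, and the lower total share of experiment 2 moved with the loss of short members. Its part in that difference was not tested.

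**Figure D5:**
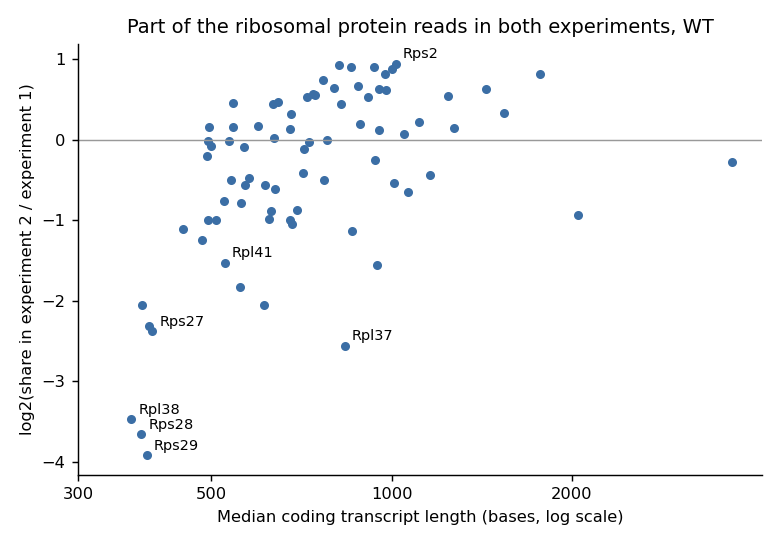
Log2 ratio of each member's percent of ribosomal protein reads in WT cells, experiment 2 over experiment 1 (y axis), against its median coding transcript length in bases (x axis, log scale), for 78 members. Rps29, Rps28 and Rpl38, among the shortest, lie lowest, at -3.92, -3.65 and -3.47.

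Other genes of the translation machinery served as a frame. Of 19 other TOP mRNAs (elongation and initiation factors, Pabpc1, Tpt1, Npm1 and the like) 0 passed edgeR's test in any of the 5 comparisons. From WT Zbtb16+ to Il1rl1+ cells 15 had a positive change, where 53.6% of all genes did, with a median of 0.07 against 0.06 over all genes. At an unadjusted p under 0.05 there were 2, where 3.58% of all genes were higher. The 3 with the largest change were Eef1d, an exchange factor of elongation (0.59, SE 0.27), Tpt1, a growth-related protein (0.49, SE 0.10), and Npm1, a nucleolar chaperone (0.44, SE 0.22). In G3SEKO against WT Icos+ Zbtb16- cells all 19 were lower, where 39.5% of all genes were higher, with a median of -0.46. At an unadjusted p under 0.05 there were 11, where 3.11% of all genes were lower. In the same sums the cytosolic members had a median of -0.51 and all genes of -0.32.

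The 78 mitochondrial ribosomal protein genes, which serve the separate ribosomes of the mitochondrion, had a median near 0 from WT Zbtb16+ to Il1rl1+ cells. In that comparison 37 had a positive change, where 53.6% of all genes did, with a median of -0.02. Of the 78, 0 passed the test or had an unadjusted p under 0.05. Their largest changes were those of Mrpl55 (-1.03, SE 1.36), Mrps31 (-0.76, SE 0.97) and Mrpl34 (-0.76, SE 0.36). From Il1rl1+ to Mki67+ cells 50 were positive, where 38.8% of all genes were, with a median of 0.27 against -0.42 for the cytosolic members. In G3SEKO against WT Icos+ Zbtb16- cells 24 of the 78 were positive, where 39.5% of all genes were, with a median of -0.63. The experiments differed: experiment 1, with 6 G3SEKO cells, gave summed levels of 4425 CPM in WT and 3405 CPM in G3SEKO. Experiment 2 gave 4040 CPM in WT and 4347 CPM in G3SEKO, and there the median share per cell was 0.364% in WT and 0.409% in G3SEKO. Of 19 regulators of ribosome production, such as Myc, Mtor and the RNA polymerase I genes, 14 were positive from Zbtb16+ to Il1rl1+ cells, where 53.6% of all genes were. Their median was 0.49, against 0.06 over all genes, and 0 of the 19 passed the test or had an unadjusted p under 0.05. The largest were those of Eif4ebp1, the mTOR target that holds back translation (2.62, SE 1.54), Rptor, a subunit of mTOR complex 1 (1.44, SE 1.51), and Polr1a, the largest subunit of RNA polymerase I (1.38, SE 1.16), and each was within 2 SE of 0. Eif4ebp1 was at 5.4 and 10.6 CPM in Zbtb16+ and at 42.6 and 38.5 CPM in Il1rl1+ cells.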

How the data were processed

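Raw reads per gene and cell were deposited as counts, made by the authors from TAS-Seq libraries with Bowtie2 on GRCm38 (mm10) and not collapsed to molecules, with the hashtag call in each cell's name. The authors' work in Seurat 4 set ribosomal protein genes aside. Here cells above the authors' read limit, under 10% mitochondrial reads, with 1 hashtag and Id2 at the gate limit were kept, and cells with more than 1 hashtag or none left out as doublets or unassigned. Depth per kept cell was 86505 to 3099660 reads in experiment 1 and 6753 to 576176 in experiment 2, and reads of a cell are not independent molecules.

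The share was each cell's reads on members, as the median of a gate. Cells are not replicates, so medians were compared per experiment (n = 2). Sums of at least 5 cells were fitted with edgeR 4.0.16 in R 4.3.3 (TMM, filterByExpr, quasi-likelihood, experiment as block, 5 residual degrees of freedom). DESeq2 1.42.0, other gates, scalings, filters, depth limits, thinned cells and each experiment alone were alternatives. Where a group had 1 sum, it was assumed to vary like the others, and p-values measure the spread between sums of pooled mice. The size of change that the fit can detect in members was not tested.

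The members and lists were chosen with earlier results of these data known. Named members were, by rule, those called (at most 8 by stage and 5 by genotype, per direction), members with paralogs, the stalk, Rpl5 and Rpl11, the 5 with the widest and the 5 with the narrowest range of makeup, and 3 per other list. The values of 1 member are not reported here on their own. Sequences are from RefSeq promoters (GRCm38.p6) and lengths from GENCODE vM21.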

Additional observations from a re-analysis of the deposited data

Results flagged for a closer look

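The step from Zbtb16+ to Icos+ Zbtb16- cells went in opposite directions in the genotypes, in both experiments. The median share of reads on ribosomal protein genes changed by 1.62 percentage points in WT (1.03 and 2.21 in experiments 1 and 2) and by -1.70 in G3SEKO (-2.22 and -1.19). The difference between these steps was not tested on shares, since 2 experiments allow no exact two-sided p under 0.5. At the level of single genes edgeR's test of the difference called 0 of 87 members and 0% of all genes. At an unadjusted p under 0.05, 30 members were lower, where 1.8% of all genes were. In the G3SEKO gate of experiment 1 there were 6 cells. The opposite direction was absent among Icos+ Zbtb16- cells with Il18r1 and no Il1rl1 read: in experiment 2 these had 9.47% in WT and 8.34% in G3SEKO, against 10.2% and 9.29% in Zbtb16+ cells, and in experiment 1 the 4 WT cells had 12.4% against 13.8%, with no G3SEKO cell. The marker sums of the gate differed between the genotypes, and their part in the result cannot be told apart from a change within a stage.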

How the results depend on the processing

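The 5 differences in share kept their sign under every alternative and when either experiment was left out, with ranges of 2.20 to 3.01 points (WT Il1rl1+ less Zbtb16+), -4.42 to -3.29 (WT Mki67+ less Il1rl1+), -1.04 to -0.905 (G3SEKO less WT in Zbtb16+), -4.30 to -4.29 (Icos+ Zbtb16-) and -4.36 to -3.39 (Il1rl1+) from one experiment alone. Gates that were not exclusive gave 1.72 for the first, -1.84 for Zbtb16+ and -4.85 for Icos+ Zbtb16-. For the genotype in Zbtb16+ cells, no Id2 limit gave -0.823, gates at 2 gave -0.564 and a fixed depth range -0.862. Cells with no Il1rl1 read, an alternative chosen after seeing the data, gave -0.717 in experiment 2 alone, since experiment 1 had no such G3SEKO cell. In Icos+ Zbtb16- cells the values were -4.33 (no Id2 limit), -4.27 (genotype from hashtag reads), -3.79 (gates at 0.5), -4.46 (gates at 2) and -4.15 (gates on other reads). They were -3.58 (summed reads), -4.39 (denominator without mitochondrial genes, Malat1 and Neat1), -5.78 (depth range) and -4.08 (thinned). Chosen after seeing the data, and from experiment 2 alone, were -4.06 (no Il1rl1 read) and -1.14 (also Il18r1).

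Members called from WT Zbtb16+ to Il1rl1+ were 1 at first, 3 by DESeq2, 3 in thinned cells and 5 with only these groups, all higher. Over all genes, those called higher were 8 of 20579, 229 of 15392, 266 of 12145 and 301 of 20935. For Mki67+ they were 1 at first, 3 with library sizes alone, 3 without the Id2 limit, 9 by DESeq2, 17 in thinned cells, 0 scaled to ribosomal protein reads and 0 with only these groups. Over all genes, those called lower were 1 of 20579, 3 of 20579, 4 of 20729, 388 of 14993, 88 of 12145, 0 of 20579 and 1 of 19419, in the same order. In Icos+ Zbtb16- they went from 0 to 6 by DESeq2 and 25 in thinned cells, and in Il1rl1+ from 0 to 1 and 5. Without the experiment as block 0 members were called in both WT comparisons, and the block changed no other call. Leaving out an experiment leaves no residual degrees of freedom, and the fit of only 2 groups could not be had for the genotype in Il1rl1+ cells.

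Scaling to ribosomal protein reads sets the members' median near 0 by construction and turned the sign of 13 named members from Zbtb16+ to Il1rl1+: Rpl22l1 (-0.060), Rpl7 (-0.10), Rps4x (-0.050), Rpl3 (-0.091), Rpl10 (-0.10), Rplp0 (-0.31), Rpl11 (-0.074), Rps29 (-0.017), Rpl27a (-0.058), Rpl13a (-0.094), Rpl27 (-0.25), Rps2 (-0.053) and Rpl41 (-0.22). Rplp0 also turned with library sizes alone (-0.046) and DESeq2 (-0.0050), and Rpl7l1 in thinned cells (0.17). With 1 experiment left out the ranges crossed 0 for Rplp0 (-0.18 to 0.22), Rpl7l1 (-0.17 to 0.072), Rpl27 (-0.0090 to 0.17) and Rpl41 (-0.068 to 0.28), and for Rps27l from Il1rl1+ to Mki67+ (-0.18 to 0.86). The cause of these changes was not tested.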
